A study of Mus musculus with 12 samples.

Results

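Proteasome subunit genes were followed across 3 groups of mouse embryonic stem cells measured on one-colour expression arrays. A probe was taken as a member when its gene name was Psma, Psmb, Psmc, Psmd, Psme or Psmf followed by a number, and Psmb8, Psmb9 and Psmb10 were left out. This gave 52 probes of 41 genes among the 55681 non-control probes of the array. Of these, 50 probes and 40 genes passed the filter on dim signal, out of 30879 probes and 22590 genes that passed in all. Psmb11, the thymus-specific relative of Psmb5, did not pass and has no value below, and 1 of the 3 Psme2 probes did not pass.

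The first group was wild-type cells (WT). The second carried a knockout of Id1 (Id1KO), whose protein binds and blocks basic helix-loop-helix transcription factors. Both lines were received from another laboratory. The third was Id1KO cells after lentiviral short hairpin RNAs against Zrf1 and puromycin selection (Id1KO_Zrf1KD). Zrf1 is the J-domain protein of the ribosome that the array lists as Dnajc2. The medium of every group held serum and leukaemia inhibitory factor, which keeps such cells undifferentiated. Each group had 4 arrays, which the study describes as independent biological samples, and the sample titles name no separate lines or clones within a group. Cells with a control hairpin are not among the samples analysed, and infection, selection and loss of Zrf1 cannot be told apart in the third group.

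The proteasome is the protease that degrades proteins tagged with ubiquitin. Its barrel, the 20S core particle, is built of outer rings of alpha subunits (Psma genes), which gate the entrance, and inner rings of beta subunits (Psmb genes), which carry the proteolytic sites. The 19S regulatory particle caps the barrel: its ATPases (Psmc genes) unfold the substrate, and its non-ATPase subunits (Psmd genes) bind ubiquitin, remove it and hold the particle together. Other caps (Psme genes) and the inhibitor Psmf1 can take the place of the 19S particle. The subunit genes are known for moving together when the transcription factor Nrf1 (Nfe2l1) is activated by a shortage of proteasomes, and pluripotent cells are known for high proteasome activity.

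A level below is log2 of a probe's processed signal minus the 75th percentile of its array, so 0 is that percentile. Levels are comparable between arrays for 1 probe and not between probes. A difference was called when limma's moderated test across all 22590 genes gave a Benjamini-Hochberg adjusted p under 0.05. Fold changes rest on 4 arrays against 4 and carry a standard error (SE). RNA came from whole cultures, in which fewer cells of a type and less RNA per cell cannot be told apart. Dnajc2 checked the knockdown: it was 4.47-fold lower in Id1KO_Zrf1KD than in Id1KO (log2 fold change -2.16 ± 0.07 (SE), adjusted p = 9.65e-10). Id1 was not lower in the cells labelled Id1KO, with mean levels of 0.86 in WT and 1.23 in Id1KO (adjusted p = 0.0519). Its probe starts at base 847 of the transcript, and the sources used do not say whether the deletion covers it, so this probe checks nothing. The 75th percentile ranged over 441 to 550 signal units on WT arrays, 393 to 492 on Id1KO arrays and 554 to 596 on Id1KO_Zrf1KD arrays.

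All 10 embryonic stem cell markers examined were above background on every array of each group. Their summed level (log2) was 10.03 to 10.22 on WT arrays, 10.15 to 10.30 on Id1KO arrays and 9.88 to 9.91 on Id1KO_Zrf1KD arrays. Their sum hides changes in both directions: in Id1KO against WT, Nanog, Zfp42, Esrrb and Sox2 were lower (-1.01, -1.02, -0.74 and -0.21) and 4 others higher, and in Id1KO_Zrf1KD against Id1KO 5 were higher and 3 lower. Markers of other cells moved with the groups. The summed level of 12 fibroblast markers was 5.10 to 5.21 for WT, 4.74 to 4.82 for Id1KO and 6.85 to 6.93 for Id1KO_Zrf1KD, and all 11 that passed the filter through more than the Id1KO_Zrf1KD arrays were called higher in Id1KO_Zrf1KD than in Id1KO. The remaining fibroblast marker, Lum, was under the background limit of the filter on all WT and Id1KO arrays. The summed level of 10 primitive and parietal endoderm markers was 7.63 to 7.72, 6.71 to 6.77 and 8.40 to 8.46 in the same order of groups, and all 10 were called higher in Id1KO_Zrf1KD than in Id1KO. Both of these sums also hide opposite changes in Id1KO against WT. There 3 endoderm markers were higher and 4 lower (-0.94 to 2.34), and of the 11 fibroblast markers 2 were higher and 7 lower. Of all genes, 32.3% were called higher and 39.8% lower in Id1KO_Zrf1KD than in Id1KO, and 42.5% and 29.6% in Id1KO against WT. The part of these cell types in the proteasome results was not tested.

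In Id1KO against WT, 25 of the 40 proteasome genes were higher, 6 were lower and 9 were not called. Over all genes, 72% were called in this comparison, 42.5% higher and 29.6% lower. The median log2 fold change of the 40 genes was 0.36, and that of all genes was 0.15. In Id1KO_Zrf1KD against Id1KO, 15 were higher, 21 lower and 4 not called, where 72.1% of all genes were called, 32.3% higher and 39.8% lower. The medians were -0.15 for the proteasome genes and -0.09 for all genes, and that of the proteasome genes turned to 0.03 under quantile normalization and 0.0037 in the deposited values. In Id1KO_Zrf1KD against WT, 30 were higher, 3 lower and 7 not called, where 64.6% of all genes were called, 32.4% higher and 32.2% lower, with medians of 0.26 and -0.02. Calls in either direction covered 77.5%, 90% and 82.5% of the 40 genes in the 3 comparisons. Among 2252 other genes whose mean levels lay between the lower and upper quartile of the members (3.78 and 6.30), the shares were 79.4%, 76.3% and 69.7%, and the medians 0.14, 0.04 and 0.14. By direction, 48.4% of these were higher and 30.9% lower in Id1KO against WT. The shares were 40.9% and 35.4% in Id1KO_Zrf1KD against Id1KO, and 48.3% and 21.4% in Id1KO_Zrf1KD against WT. The 3 comparisons share samples, so their values stand side by side and are not independent of each other.

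Of the 50 member probes, 32 were higher and 6 lower in Id1KO against WT, where 70.4% of all probes were called, 42.3% higher and 28.1% lower. In Id1KO_Zrf1KD against Id1KO, 18 were higher and 27 lower (71% of all probes, 30.3% higher and 40.6% lower), and in Id1KO_Zrf1KD against WT 36 and 4 (63.7%, 31.4% and 32.4%). Among the 10 genes with a pair of kept probes, the probes gave the same call for 8, 10 and 8 genes, and none gave opposite calls.

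The array values of the compared groups did not overlap for 31 of the 40 genes in Id1KO against WT, where 65.8% of all genes did not overlap. They did not overlap for 33 genes in Id1KO_Zrf1KD against Id1KO and for 30 in Id1KO_Zrf1KD against WT, where the shares of all genes were 67.1% and 60.9%. The arrays lay on 3 slides that each held all groups. All 31 genes called in the first comparison, all 36 of the second and all 33 of the third had the same sign of difference on each of the 3 slides. For genes whose groups do not overlap, which were most of those called, this sign follows from the lack of overlap and adds nothing to it. Leaving out Psmb2, the standard deviation of a member's level within a group ran from 0.015 to 0.46 with a median of 0.064. The widest spread was that of the dim Psma8.

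The members did not move as 1 block. The plot of fold changes by subunit class shows the alpha genes highest above WT in Id1KO and a split of the Psmd genes around 0. Both comparisons use the same Id1KO arrays, which alone favours opposite signs.

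**Figure D1:**
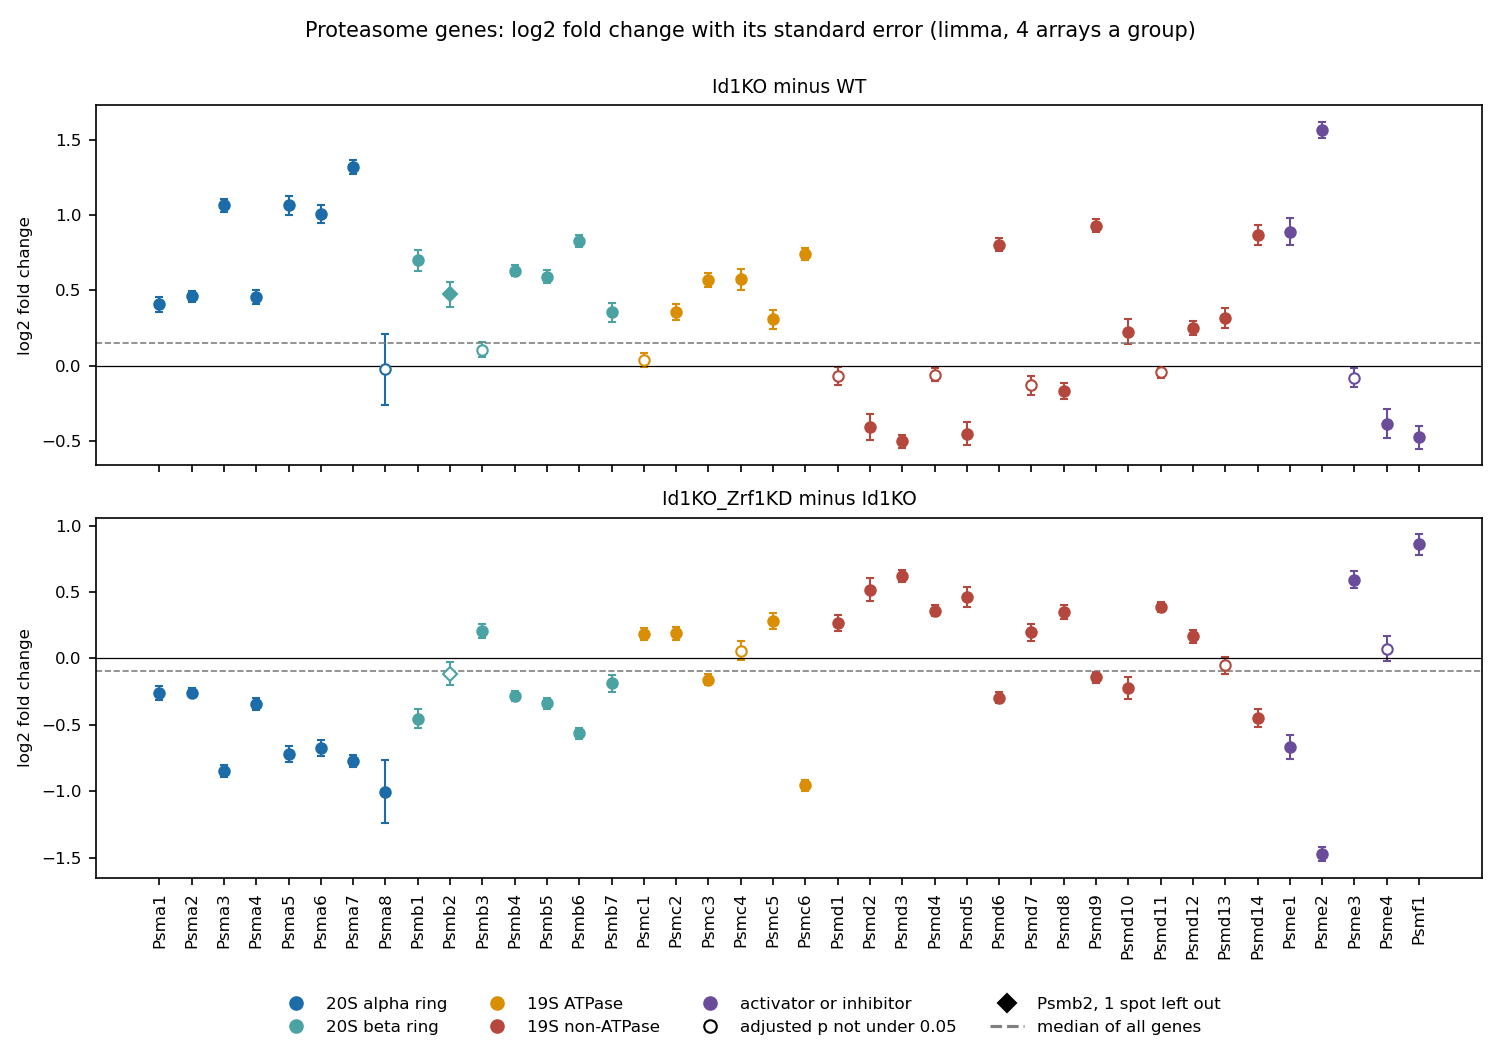
Log2 fold change (points) and standard error (bars) of the 40 proteasome genes in Id1KO against WT and in Id1KO_Zrf1KD against Id1KO, coloured by subunit class, with open points where the adjusted p was not under 0.05. Psmb2 is drawn without 1 spot that was not well above background (diamond). All 7 alpha genes Psma1 to Psma7 lie above 0 in the upper panel and below 0 in the lower one, and 4 Psmd genes that were called lower above were called higher below.

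The scale that links arrays matters for these counts. Quantile normalization and the authors' deposited values moved the median of all genes in Id1KO against WT from 0.15 to 0.02 and 0.01. With quantile normalization, 17 proteasome genes were then higher and 12 lower than in WT, and with the deposited values 22 and 11. Over all genes, 35.2% were then higher and 34.7% lower under quantile normalization, and 35% and 34.3% in the deposited values. For Id1KO_Zrf1KD against Id1KO, the counts became 16 higher and 15 lower under quantile normalization, and 15 and 14 in the deposited values, where 35.6% and 34% (quantile) and 35.4% and 33.6% (deposited) of all genes were called. Another background correction, normexp, gave 24 higher and 6 lower in the first comparison and 15 and 18 in the second. Of all genes, 45% were then higher and 27.9% lower in the first, and 29.9% and 43.1% in the second. Of the 25 genes called higher in Id1KO, 16 kept the call under all 3 of these alternatives, and so did all 6 called lower. Of the calls of the second comparison, 14 of the 15 higher and 12 of the 21 lower were kept. Of those in Id1KO_Zrf1KD against WT, 21 of the 30 higher and all 3 lower were kept, and Psma1, Psmb1, Psmb7, Psmc1, Psmd1, Psmd3, Psmd8, Psmd13 and Psme1 were lost. Centring each array on the median of genes with a symbol added 0.13 to every fold change of the first comparison and -0.14 to those of the second. It gave 27 higher and 5 lower in the first and 8 and 22 in the second, where Psmb3, Psmc1, Psmc2, Psmc5, Psmd1, Psmd7 and Psmd12 were no longer called higher. The shares of all genes by direction under this centring are not given here, so these counts have no reference. For the other comparisons, a gene whose call or direction was lost is marked as such where it is described.

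**Figure D2:**
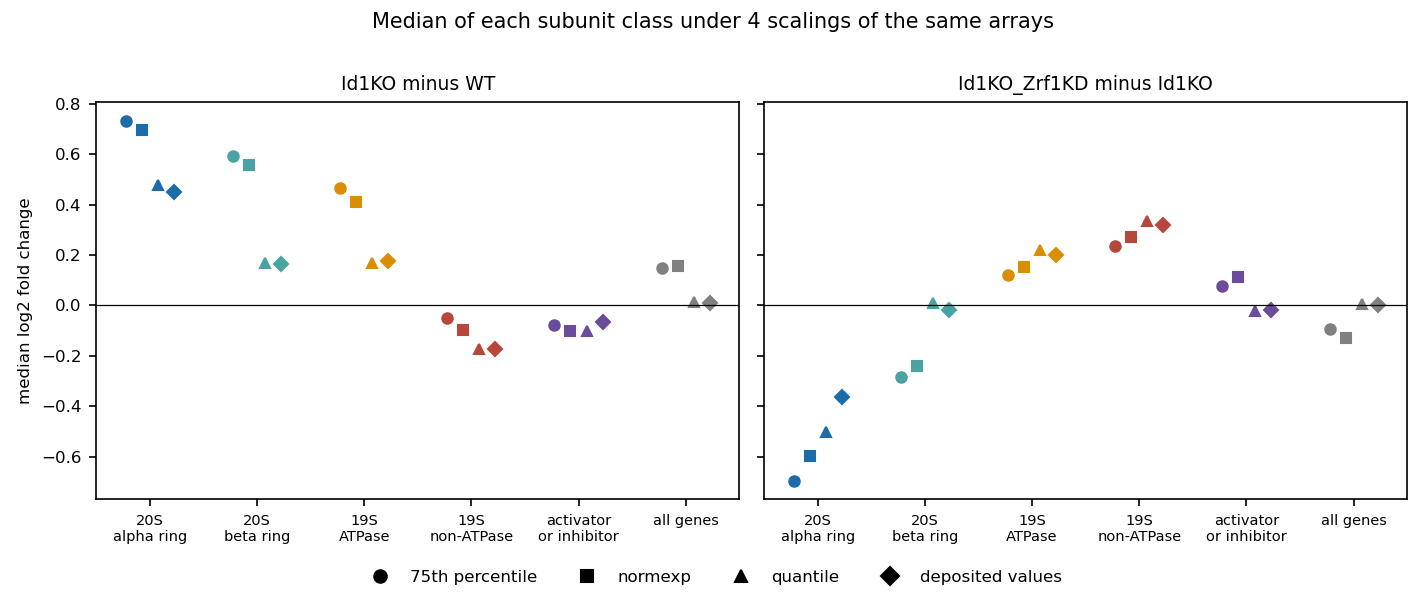
Median log2 fold change of each subunit class and of all genes in Id1KO against WT (left) and Id1KO_Zrf1KD against Id1KO (right), with 1 symbol for each of 4 scalings of the same arrays. The alpha ring median was 0.73 with the 75th percentile and 0.45 with the deposited values in Id1KO against WT, and the beta ring median fell from 0.59 to 0.16.

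The alpha ring genes of the core particle rose in Id1KO and fell after the Zrf1 knockdown. All 7 genes of the constitutive ring, Psma1 to Psma7, were higher in Id1KO than in WT and lower in Id1KO_Zrf1KD than in Id1KO. Of all genes, 42.5% were higher in the first of these comparisons and 39.8% lower in the second. In Id1KO_Zrf1KD against WT, 32.4% of all genes were higher. The log2 fold changes of the 7 genes ran from 0.41 (Psma1) to 1.32 (Psma7) in the first comparison and from -0.85 (Psma3) to -0.26 (Psma2) in the second. Against WT, Id1KO_Zrf1KD was still higher for 6 of the 7, by 0.15 to 0.55, and Psma4 was not called (0.11 ± 0.05 (SE), adjusted p = 0.0539) except with slide as a block (adjusted p = 0.0112), another prior (0.0344) or the mean of its probes (0.00308). This Psma4 difference turned to -0.038 under quantile normalization and to -0.04 in the deposited values. With quantile normalization Psma1 and Psma2 lost the first call, and with the deposited values Psma1 lost both calls. Psma2 changed its sign in the second comparison, to 0.046 under quantile normalization and 0.025 in the deposited values. The Psma1 call in Id1KO_Zrf1KD against WT was lost under normexp, quantile normalization and the deposited values, turning to -0.0013 and -0.0125 in the last pair. It was also lost without WT replicate 1, 2 or 4 (0.14, 0.14 and 0.12) or Id1KO_Zrf1KD replicate 3 (0.13).

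Psma7, the alpha subunit with the largest change in Id1KO, lay at 5.65, 5.51, 5.59 and 5.58 in WT, 6.83, 6.93, 6.87 and 6.96 in Id1KO, and 6.08, 6.14, 6.17 and 6.12 in Id1KO_Zrf1KD. All 4 Id1KO arrays were above all others, and the Id1KO_Zrf1KD arrays lay between the other groups without overlap. It was 2.49-fold higher in Id1KO than in WT (1.32 ± 0.05 (SE), adjusted p = 8.91e-10) and 1.71-fold lower in Id1KO_Zrf1KD than in Id1KO (-0.77 ± 0.05 (SE), adjusted p = 6.59e-08). Id1KO_Zrf1KD remained 1.46-fold above WT (adjusted p = 1.16e-06).

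Psma3 had the largest fall among the 7. Its levels were 6.50, 6.48, 6.65 and 6.53 in WT, 7.60, 7.63, 7.55 and 7.64 in Id1KO, and 6.75, 6.75, 6.75 and 6.78 in Id1KO_Zrf1KD, and the Id1KO arrays stood apart from both other groups. The first difference was 1.06 ± 0.04 (SE), adjusted p = 3.1e-09 and the second -0.85 ± 0.04 (SE), adjusted p = 2.15e-08. Id1KO_Zrf1KD was above WT by 0.22, with no overlap of the arrays. Psma5 showed the same order of groups, at 5.27, 5.31, 5.51 and 5.37 in WT, 6.36, 6.48, 6.45 and 6.43 in Id1KO, and 5.65, 5.68, 5.82 and 5.68 in Id1KO_Zrf1KD. The lowest Id1KO array of Psma5 exceeded every other array, and the differences were 1.06 ± 0.06 (SE), adjusted p = 3.62e-08, and -0.72 ± 0.06 (SE), adjusted p = 9.57e-07. Psma6, at 5.46, 5.52, 5.63 and 5.60 in WT, 6.50, 6.45, 6.62 and 6.67 in Id1KO, and 5.85, 5.88, 5.84 and 5.97 in Id1KO_Zrf1KD, was 2.01-fold higher in Id1KO and then 1.6-fold lower.

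The smaller changes were those of Psma1, Psma2 and Psma4, each between 0.41 and 0.46 above WT in Id1KO. Psma2 lay at 7.06, 7.04, 7.07 and 7.03 in WT, 7.44, 7.55, 7.51 and 7.54 in Id1KO, and 7.23, 7.28, 7.26 and 7.25 in Id1KO_Zrf1KD. Its groups were far apart compared with a spread of 0.02 to 0.05 (SD), at an adjusted p of 0.000434 for Id1KO_Zrf1KD against WT. Psma4 was measured by a pair of probes, shown because the change can be read from separate stretches of the same RNA. Here and below, probe coordinates are those of the array's design (build mm9), and a span wider than the probe crosses an intron.
Psma4 probe from base 409, chr9:54802741-54804087, plus strand: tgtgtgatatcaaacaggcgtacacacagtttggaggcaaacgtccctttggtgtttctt
Psma4 probe from base 643, chr9:54804685-54805444, plus strand: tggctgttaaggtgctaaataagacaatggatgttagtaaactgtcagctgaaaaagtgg
The Psma4 probe from base 409 gave 0.54 in Id1KO against WT and -0.33 in Id1KO_Zrf1KD against Id1KO, and the probe from base 643 gave 0.46 and -0.34. Both were called in both comparisons. In Id1KO_Zrf1KD against WT only the first of them was called, with adjusted p-values of 0.0262 and 0.0609 in the fit over all probes.

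Psma8, the germ-cell counterpart of Psma7, was dim and scattered, at -2.99, -2.88, -2.15 and -2.13 in WT, -2.63, -2.06, -2.76 and -2.77 in Id1KO, and -3.63, -3.72, -3.19 and -3.70 in Id1KO_Zrf1KD. WT and Id1KO overlapped (-0.02 ± 0.24 (SE), adjusted p = 0.936). Id1KO_Zrf1KD lay below both, at -1.002 ± 0.24 (SE), adjusted p = 0.00262 against Id1KO, and this call was lost with quantile normalization and the deposited values.

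**Figure D3:**
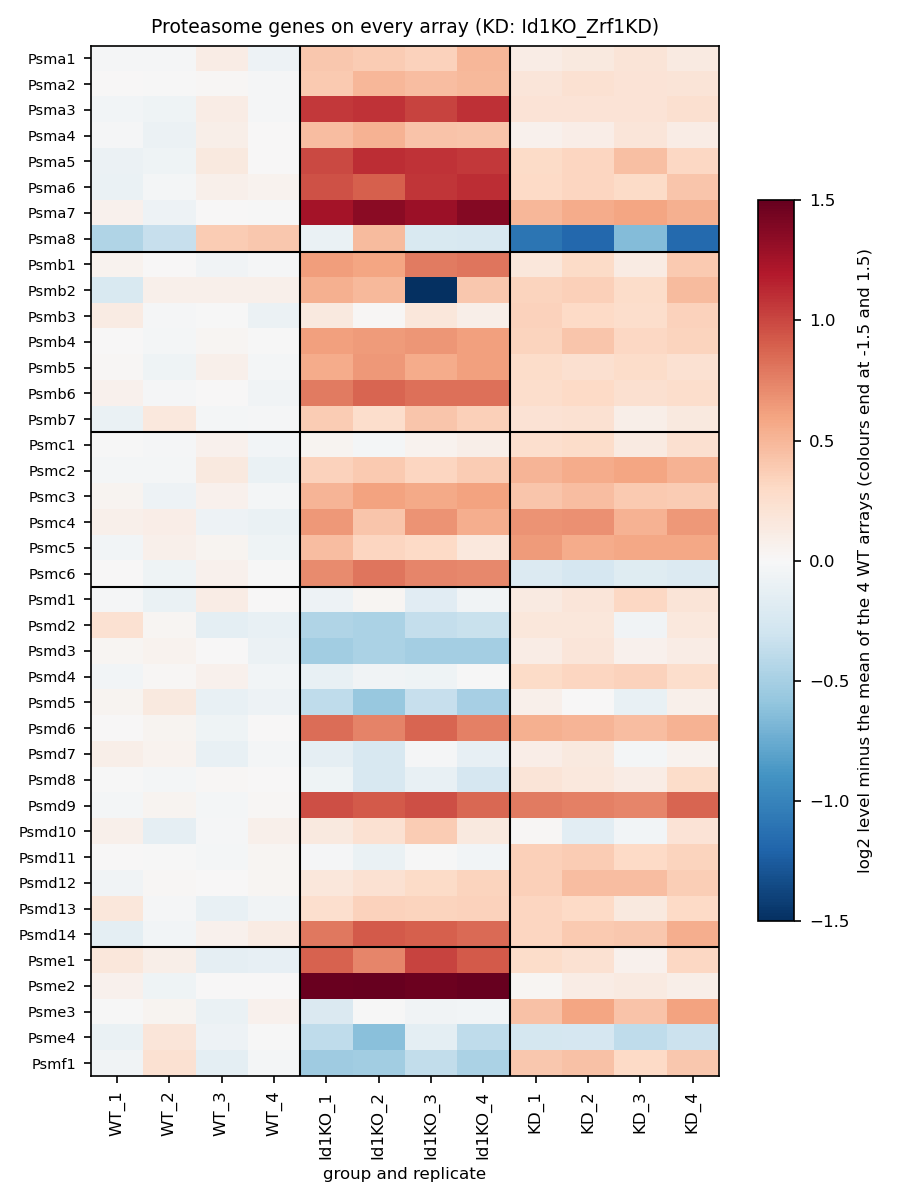
Level of each of the 40 proteasome genes (rows, by class) on each of the 12 arrays (columns), as log2 difference from the mean of the 4 WT arrays, red for higher and blue for lower. Psma3, Psma5, Psma6, Psma7 and Psme2 are red on all 4 Id1KO arrays, and Psmd2, Psmd3, Psmd5 and Psmf1 are blue there. The dark cell of Psmb2 on Id1KO replicate 3 is a spot not well above background.

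Most beta ring genes moved in the same directions as the alpha ring. In Id1KO, 5 of the 7 constitutive genes tested (Psmb1, Psmb4, Psmb5, Psmb6 and Psmb7) were higher than in WT, by 0.36 to 0.83, and the same 5 were lower in Id1KO_Zrf1KD than in Id1KO, at -0.56 to -0.19. The shares of all genes were 42.5% higher in the first of these comparisons and 39.8% lower in the second. Psmb3 was not called in Id1KO (0.11 ± 0.05 (SE), adjusted p = 0.0867), but was with slide as a block (adjusted p = 0.0362). In Id1KO_Zrf1KD against WT, 6 of the 7 were higher, by 0.17 to 0.35, where 32.4% of all genes were higher. With quantile normalization Psmb5 and Psmb7 lost the first call, and Psmb3 was called lower, at -0.25. In the deposited values Psmb3 was called lower as well, at -0.22. In the second comparison Psmb7 lost its call under normexp, quantile normalization and the deposited values. Psmb4 lost its call with the last pair, and Psmb5 turned to 0.15 under quantile normalization and to 0.09 in the deposited values.

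Psmb6, the subunit with the caspase-like site, lay at 7.33, 7.25, 7.27 and 7.21 in WT, 8.04, 8.14, 8.09 and 8.09 in Id1KO, and 7.53, 7.56, 7.50 and 7.53 in Id1KO_Zrf1KD. Every Id1KO array was above every other, and every Id1KO_Zrf1KD array was above every WT array. It was 1.78-fold higher in Id1KO (0.83 ± 0.04 (SE), adjusted p = 8.47e-09) and 1.48-fold lower after the knockdown (-0.56 ± 0.04 (SE), adjusted p = 2.1e-07). Psmb5, which carries the chymotrypsin-like site, lay at 7.66, 7.57, 7.72 and 7.62 in WT, 8.20, 8.29, 8.19 and 8.25 in Id1KO, and 7.92, 7.88, 7.92 and 7.87 in Id1KO_Zrf1KD. Its groups did not overlap, and the differences were 0.59 ± 0.04 (SE), adjusted p = 2.75e-07, and -0.34 ± 0.04 (SE), adjusted p = 3.03e-05. A further Psmb5 probe gave 0.67 and -0.37. Psmb7, with the trypsin-like site, differed by less: 0.36 and -0.19, and its levels were 4.84, 5.09, 4.91 and 4.92 in WT, 5.32, 5.20, 5.36 and 5.30 in Id1KO, and 5.16, 5.17, 5.02 and 5.08 in Id1KO_Zrf1KD. The second call was lost without Id1KO replicate 3 (-0.16) or without Id1KO_Zrf1KD replicate 3 (-0.16). In Id1KO_Zrf1KD against WT its difference of 0.17 lost the call without WT replicate 1, 3 or 4 or Id1KO_Zrf1KD replicate 1, 2 or 4, at 0.13 to 0.18.

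Psmb4, a subunit without a proteolytic site, lay at 6.82, 6.78, 6.84 and 6.80 in WT, 7.43, 7.45, 7.48 and 7.42 in Id1KO, and 7.15, 7.23, 7.12 and 7.14 in Id1KO_Zrf1KD. The Id1KO arrays were the highest and the WT arrays the lowest. The differences were 0.63 ± 0.04 (SE), adjusted p = 5.16e-08, and -0.28 ± 0.04 (SE), adjusted p = 3.93e-05, and against WT the knockdown cells kept 0.35 ± 0.04 (SE), adjusted p = 8.44e-06. Psmb1, another non-catalytic subunit, changed by 0.70 and -0.45. Psmb3 was the exception of this ring, at 7.04, 6.90, 6.92 and 6.83 in WT, 7.07, 6.94, 7.09 and 7.01 in Id1KO, and 7.27, 7.22, 7.18 and 7.27 in Id1KO_Zrf1KD. WT and Id1KO overlapped, and Id1KO_Zrf1KD lay above both, by 0.21 ± 0.05 (SE), adjusted p = 0.00436 over Id1KO and by 0.31 over WT. With arrays centred on genes with a symbol, Psmb3 was instead called higher in Id1KO than in WT (0.23, adjusted p = 0.00154) and not called from there to Id1KO_Zrf1KD (0.07, adjusted p = 0.238).

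Psmb2 was decided by 1 spot. Its probe is shown because its reading on a single array sets the sign of the gene (build mm9).
Psmb2 probe from base 293, chr4:126361456-126364299, plus strand: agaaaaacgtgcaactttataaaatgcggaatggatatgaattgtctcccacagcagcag
The levels were 2.04, 2.34, 2.34 and 2.35 in WT, 2.80, 2.75, -4.75 and 2.67 in Id1KO, and 2.60, 2.63, 2.54 and 2.74 in Id1KO_Zrf1KD. On Id1KO replicate 3 the processed signal was 15.4 units and not well above background, against 2556 to 3431 on the other Id1KO arrays. With that spot the difference from WT was -1.40 ± 1.41 (SE), adjusted p = 0.388. Without it, an alternative chosen after the values were seen, Psmb2 was higher in Id1KO by 0.47 (adjusted p = 0.000528) and then differed from Id1KO_Zrf1KD by -0.11 (adjusted p = 0.248). Id1KO_Zrf1KD was then above WT by 0.36 (adjusted p = 0.00221).

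The ATPases of the regulatory particle followed the core in the first comparison and parted in the second. In Id1KO, 5 of 6 were higher than in WT, by 0.31 to 0.74, and Psmc1 was not called (0.04 ± 0.04 (SE), adjusted p = 0.465). After the knockdown, against Id1KO, 3 were higher (Psmc1, Psmc2 and Psmc5), 2 lower (Psmc3 and Psmc6) and Psmc4 not called. Against WT, 5 were higher in Id1KO_Zrf1KD and Psmc6 was lower. Of all genes, 42.5% were higher and 29.6% lower in the first comparison. In the second, the ATPase shares of 50% higher and 33.3% lower stood beside 32.3% and 39.8% of all genes. In Id1KO_Zrf1KD against WT, 32.4% of all genes were higher and 32.2% lower. Psmc2 and Psmc5 lost the first call with quantile normalization, Psmc2 also with the deposited values, and Psmc1 was called lower under both, at -0.29 and -0.24. Psmc3 in the second comparison was called higher with quantile normalization (0.146) and in the deposited values (0.145).

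Psmc6 stood apart from the other ATPases. Its levels were 3.66, 3.60, 3.72 and 3.65 in WT, 4.36, 4.46, 4.39 and 4.38 in Id1KO, and 3.45, 3.40, 3.47 and 3.45 in Id1KO_Zrf1KD. The Id1KO arrays were all highest and the Id1KO_Zrf1KD arrays all lowest. It rose 1.67-fold in Id1KO (0.74 ± 0.04 (SE), adjusted p = 2.47e-08) and fell 1.94-fold after the knockdown (-0.95 ± 0.04 (SE), adjusted p = 4.51e-09), to -0.21 against WT. This was the largest fall of any core or ATPase gene of the constitutive particle. Psmc3 lay at 6.99, 6.87, 7.02 and 6.92 in WT, 7.45, 7.55, 7.51 and 7.55 in Id1KO, and 7.37, 7.40, 7.34 and 7.32 in Id1KO_Zrf1KD. Both knockout groups were above WT without overlap, by 0.57 ± 0.04 (SE), adjusted p = 5.18e-07 in Id1KO and 0.41 in Id1KO_Zrf1KD.

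Psmc5 lay at 4.44, 4.57, 4.52 and 4.42 in WT, 4.95, 4.82, 4.78 and 4.64 in Id1KO, and 5.13, 5.05, 5.07 and 5.07 in Id1KO_Zrf1KD. The group ranges did not overlap, with 0.31 ± 0.06 (SE), adjusted p = 0.000954 and then 0.28 ± 0.06 (SE), adjusted p = 0.00175. Psmc2, at 5.53, 5.53, 5.70 and 5.46 in WT, 5.90, 5.95, 5.87 and 5.94 in Id1KO, and 6.06, 6.12, 6.15 and 6.08 in Id1KO_Zrf1KD, differed by 0.36 and 0.19. With arrays centred on genes with a symbol the second call was lost for both, at 0.15 (adjusted p = 0.0502) for Psmc5 and 0.05 (adjusted p = 0.393) for Psmc2. It was 1.46-fold above WT in Id1KO_Zrf1KD (0.55 ± 0.05 (SE), adjusted p = 3.27e-06). In the mouse genome Psmc2 is next to Dnajc2, the target of the hairpin, with 37.0 kb between their probes in mm9, and Dnajc2 moved the other way (-2.16). Psmc4, at 4.78, 4.80, 4.63 and 4.60 in WT, 5.35, 5.12, 5.37 and 5.25 in Id1KO, and 5.37, 5.38, 5.22 and 5.35 in Id1KO_Zrf1KD, was above WT by 0.57 in Id1KO and 0.63 in Id1KO_Zrf1KD, and these groups overlapped. Psmc1, at 6.51, 6.50, 6.57 and 6.48 in WT, 6.55, 6.49, 6.57 and 6.61 in Id1KO, and 6.77, 6.79, 6.65 and 6.75 in Id1KO_Zrf1KD, was higher in Id1KO_Zrf1KD than in Id1KO by 0.19 ± 0.04 (SE), adjusted p = 0.00284. With the same centring this became 0.05 (adjusted p = 0.329), and Psmc1 was called higher in Id1KO than in WT (0.16, adjusted p = 0.00617).

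The non-ATPase subunits of the regulatory particle were called in both directions in Id1KO, in shares close to those of all genes: 42.9% were higher and 28.6% lower, against 42.5% and 29.6%. Of 14 genes, 6 were higher than in WT (Psmd6, Psmd9, Psmd10, Psmd12, Psmd13 and Psmd14), 4 lower (Psmd2, Psmd3, Psmd5 and Psmd8) and 4 not called (Psmd1, Psmd4, Psmd7 and Psmd11). Their median was -0.05. In Id1KO_Zrf1KD against Id1KO, 9 were higher, 4 lower (Psmd6, Psmd9, Psmd10 and Psmd14) and Psmd13 not called, with a median of 0.23. These were 64.3% and 28.6%, against 32.3% and 39.8% of all genes. Against WT, 10 were higher in Id1KO_Zrf1KD and none lower, where 32.4% of all genes were higher and 32.2% lower. With quantile normalization the first counts were 4 higher and 8 lower: Psmd12 (-0.05) and Psmd13 lost their calls, and Psmd1, Psmd4, Psmd7 and Psmd11 were called lower. With the deposited values they were 5 and 7: Psmd12 lost its call, and Psmd1, Psmd4 and Psmd7 were called lower. Of all genes, 35.2% were then higher and 34.7% lower under quantile normalization, and 35% and 34.3% in the deposited values. Psmd10 lost its call in both comparisons under normexp, and Psmd9 in the second.

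Psmd14, the deubiquitinase of the lid, lay at 2.92, 3.02, 3.14 and 3.20 in WT, 3.86, 3.99, 3.97 and 3.92 in Id1KO, and 3.39, 3.46, 3.47 and 3.61 in Id1KO_Zrf1KD. The groups did not overlap, with Id1KO highest and WT lowest, at 0.87 ± 0.07 (SE), adjusted p = 5.09e-07, and -0.45 ± 0.07 (SE), adjusted p = 0.000114. Psmd6, another lid subunit, lay at 3.65, 3.69, 3.58 and 3.65 in WT, 4.48, 4.38, 4.51 and 4.40 in Id1KO, and 4.17, 4.15, 4.11 and 4.16 in Id1KO_Zrf1KD. It showed the same order, 0.80 ± 0.04 (SE), adjusted p = 2.38e-08, and -0.30 ± 0.04 (SE), adjusted p = 8.56e-05. Psmd9, a chaperone that helps to assemble the ATPase ring and is absent from the finished particle, lay at 1.27, 1.34, 1.27 and 1.32 in WT, 2.27, 2.22, 2.27 and 2.17 in Id1KO, and 2.09, 2.06, 2.03 and 2.17 in Id1KO_Zrf1KD. It was 1.9-fold above WT in Id1KO (0.93 ± 0.04 (SE), adjusted p = 8.42e-09) and stayed 1.73-fold above WT in Id1KO_Zrf1KD. The Id1KO and Id1KO_Zrf1KD arrays overlapped, with a difference of -0.14 ± 0.04 (SE), adjusted p = 0.0126. A further Psmd9 probe gave 0.66, -0.52 and 0.14 in the 3 comparisons, so the size of the second step depended on the probe, and the last difference was called by the first probe and not by this one.

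The opposite order belonged to Psmd2, Psmd3, Psmd5 and Psmd8. Psmd3, a lid subunit, lay at 7.62, 7.65, 7.59 and 7.51 in WT, 7.08, 7.12, 7.09 and 7.08 in Id1KO, and 7.71, 7.77, 7.66 and 7.71 in Id1KO_Zrf1KD. All Id1KO arrays were below all others, at -0.50 ± 0.04 (SE), adjusted p = 8.56e-07 against WT, and Id1KO_Zrf1KD was above Id1KO by 0.62 ± 0.04 (SE), adjusted p = 1.69e-07. Psmd2, a large subunit at the base of the particle, went from WT to Id1KO by -0.41 ± 0.09 (SE), adjusted p = 0.00139 and then by 0.52 ± 0.09 (SE), adjusted p = 0.000247. Psmd5, an assembly chaperone, gave -0.45 and 0.46, and Psmd8 gave -0.17 and 0.35. For Psmd2 and Psmd5, Id1KO_Zrf1KD was not distinguishable from WT (0.11 and 0.01). The calls of these 4 genes in the first and second comparisons held under normexp, quantile normalization and the deposited values, and Psmd8 lost the first one with arrays centred on genes with a symbol (-0.04, adjusted p = 0.494).

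The 9 genes that rose after the knockdown included the ubiquitin receptor Psmd4 and the lid subunit Psmd11. Psmd11 lay at 3.54, 3.53, 3.51 and 3.57 in WT, 3.51, 3.44, 3.53 and 3.50 in Id1KO, and 3.89, 3.91, 3.84 and 3.88 in Id1KO_Zrf1KD. WT and Id1KO overlapped, and every Id1KO_Zrf1KD array was above both, by 0.38 ± 0.04 (SE), adjusted p = 2.63e-06 over Id1KO. Psmd4, at 6.50, 6.56, 6.60 and 6.50 in WT, 6.43, 6.49, 6.48 and 6.54 in Id1KO, and 6.84, 6.86, 6.88 and 6.80 in Id1KO_Zrf1KD, showed the same order and differed by 0.36 ± 0.04 (SE), adjusted p = 1.21e-05. Psmd1, a scaffold of the base, rose by 0.27, Psmd7 by 0.20 and Psmd12 by 0.17. Psmd7 lost its call with quantile normalization and the deposited values, and its groups overlapped. With arrays centred on genes with a symbol all 3 lost the call, at 0.13 for Psmd1 (adjusted p = 0.0661), 0.06 for Psmd7 (0.401) and 0.03 for Psmd12 (0.631). With slide as a block Psmd7 was called lower in Id1KO than in WT (-0.13, adjusted p = 0.0251).

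Psmd10, an assembly chaperone also known as gankyrin, changed by 0.23 and -0.22, with overlap of the Id1KO and Id1KO_Zrf1KD arrays. The first call was lost without WT replicate 2 or 3 or Id1KO replicate 2 or 3 (0.17 to 0.23), and the second without Id1KO replicate 2 or 3 or Id1KO_Zrf1KD replicate 1, 2 or 3 (-0.23 to -0.17). Psmd12 rose by 0.25 in Id1KO by its brighter probe, and its other probe was not called (0.17, adjusted p = 0.0893). Psmd13 was 0.32 above WT in Id1KO and -0.05 from there to Id1KO_Zrf1KD, which was called with the same centring (-0.19, adjusted p = 0.018). The probes of Psmd6, Psmd14 and Psmd8 are given as examples of lid subunits that moved in opposite directions in Id1KO (build mm9).
Psmd6 probe from base 890, chr14:14946703-14946762, minus strand: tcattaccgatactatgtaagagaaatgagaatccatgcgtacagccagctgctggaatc
Psmd14 probe from base 458, chr2:61599058-61599117, plus strand: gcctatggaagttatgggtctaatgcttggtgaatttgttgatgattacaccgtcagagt
Psmd8 probe from base 702, chr7:29961170-29962121, minus strand: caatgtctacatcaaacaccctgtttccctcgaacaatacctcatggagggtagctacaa

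Because a shift of a whole array cancels within it, the classes were also set against each other on each array. The mean level of Psma1 to Psma7 minus that of the 11 Psmd genes of the finished 19S particle was 0.66, 0.66, 0.81 and 0.72 in WT, 1.44, 1.49, 1.42 and 1.49 in Id1KO, and 0.68, 0.69, 0.79 and 0.71 in Id1KO_Zrf1KD. The Id1KO arrays were separate from both other groups, which covered the same range. The group means ± SD were 0.71 ± 0.07, 1.46 ± 0.04 and 0.72 ± 0.05 (n = 4 each). The difference between Id1KO and WT was 0.75, and that between Id1KO_Zrf1KD and Id1KO was -0.74. The sets were formed with the values known, so no test is given.

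For Psmb1 and Psmb3 to Psmb7 the same quantity averaged 1.44 ± 0.02 over WT arrays, 1.90 ± 0.0079 over Id1KO arrays and 1.44 ± 0.0094 over Id1KO_Zrf1KD arrays. For the 6 ATPases it was 0.28 ± 0.05, 0.63 ± 0.03 and 0.38 ± 0.02. The zero of these numbers depends on the probes and has no meaning, and the differences between groups do. For the alpha genes they were 0.75 and -0.74 under normexp as well. They were smaller under the other scalings: 0.62 and -0.62 for the alpha genes under quantile normalization, 0.58 and -0.57 in the deposited values, and 0.28 and -0.25 for the beta genes under quantile normalization. The sign was the same in each of these.

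**Figure D4:**
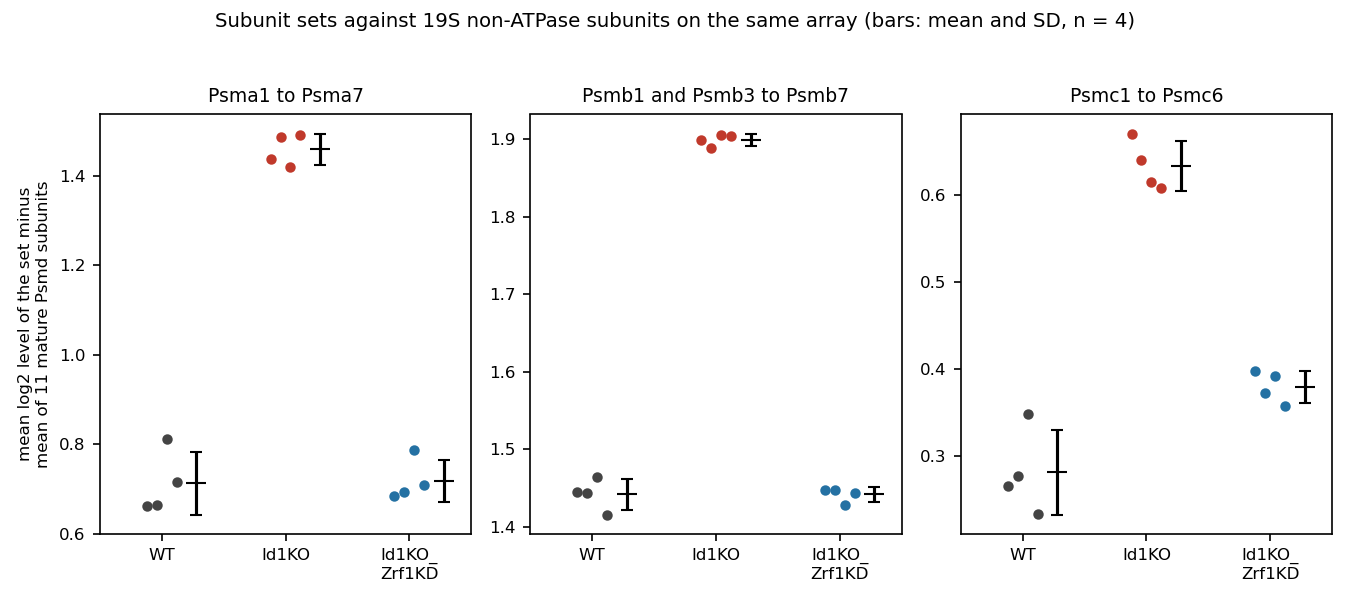
Mean log2 level of 3 subunit sets minus the mean of 11 Psmd genes on the same array, for the 4 arrays of each group (points), with mean and SD (bars). The Id1KO arrays lie above both other groups in each panel, and WT and Id1KO_Zrf1KD cover the same range for the alpha and beta genes.

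Among the regulators of the core particle, Psme2 had the largest fold change of any member apart from Psmb2, whose value rests on 1 spot. The cap genes Psme1 and Psme2, which encode the subunits of PA28 and are known to be induced by interferon, were higher in Id1KO and lower after the knockdown. Psme2 lay at 4.61, 4.49, 4.56 and 4.56 in WT, 6.04, 6.19, 6.03 and 6.22 in Id1KO, and 4.58, 4.67, 4.69 and 4.65 in Id1KO_Zrf1KD. It was 2.95-fold higher in Id1KO than in WT (1.56 ± 0.05 (SE), adjusted p = 9.14e-10) and 2.77-fold lower in Id1KO_Zrf1KD (-1.47 ± 0.05 (SE), adjusted p = 1.94e-09), where it was not called against WT (0.09). The Id1KO arrays stood well apart and the other groups overlapped. Psme1 lay at 3.76, 3.67, 3.45 and 3.47 in WT, 4.48, 4.31, 4.60 and 4.51 in Id1KO, and 3.86, 3.82, 3.65 and 3.90 in Id1KO_Zrf1KD. It was 1.85-fold higher (0.89 ± 0.09 (SE), adjusted p = 3.89e-06) and then 1.59-fold lower (-0.67 ± 0.09 (SE), adjusted p = 4.33e-05). Its difference between Id1KO_Zrf1KD and WT (0.22) lost its call under quantile normalization and the deposited values. It was also lost without WT replicate 3 or 4, Id1KO replicate 1 or 4, or Id1KO_Zrf1KD replicate 1, 2 or 4, at 0.18 to 0.22.

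The probes of Psme1 and Psme2 are 6.04 kb apart on chromosome 14 in mm9, with Emc9 as the gene between them in the RefSeq annotation. Psme2 was read by probes that start at bases 198 and 818 of its transcript. The first, with the probe of the inhibitor Psmf1 that moved the other way, is shown (build mm9).
Psme2 probe from base 198, chr14:56208888-56209346, minus strand: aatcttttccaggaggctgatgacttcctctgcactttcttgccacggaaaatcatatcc
Psmf1 probe from base 519, chr2:151555353-151555412, minus strand: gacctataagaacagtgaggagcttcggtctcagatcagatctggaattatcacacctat
The Psme2 probe from base 198 gave 1.57 in Id1KO against WT and -1.43 in Id1KO_Zrf1KD against Id1KO. The brighter probe from base 818 gave 1.56 and -1.47, so the pair differed by less than their standard errors.

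The other caps and the inhibitor did not follow. Psme3, which forms the nuclear PA28 cap, lay at 2.21, 2.26, 2.12 and 2.29 in WT, 2.003, 2.22, 2.17 and 2.18 in Id1KO, and 2.66, 2.81, 2.65 and 2.82 in Id1KO_Zrf1KD. WT and Id1KO overlapped, and Id1KO_Zrf1KD was 1.51-fold above Id1KO (0.59 ± 0.06 (SE), adjusted p = 8.35e-06). Psmf1 lay at 1.15, 1.42, 1.04 and 1.17 in WT, 0.66, 0.68, 0.83 and 0.72 in Id1KO, and 1.60, 1.64, 1.49 and 1.60 in Id1KO_Zrf1KD. Its order was Id1KO lowest, WT between and Id1KO_Zrf1KD highest, with -0.47 ± 0.08 (SE), adjusted p = 0.000184 and then 0.86 ± 0.08 (SE), adjusted p = 1.61e-06. Psme4, the PA200 cap, lay at 2.43, 2.71, 2.45 and 2.52 in WT, 2.15, 1.90, 2.38 and 2.15 in Id1KO, and 2.26, 2.28, 2.14 and 2.20 in Id1KO_Zrf1KD. It was lower than WT in Id1KO (-0.38 ± 0.10 (SE), adjusted p = 0.00392) and in Id1KO_Zrf1KD (-0.31 ± 0.10 (SE), adjusted p = 0.015), and its second probe, at -0.19 in Id1KO, was not called. The calls of Psme1, Psme2, Psme3 and Psmf1 in the second comparison held under all 3 other scalings.

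**Figure D5:**
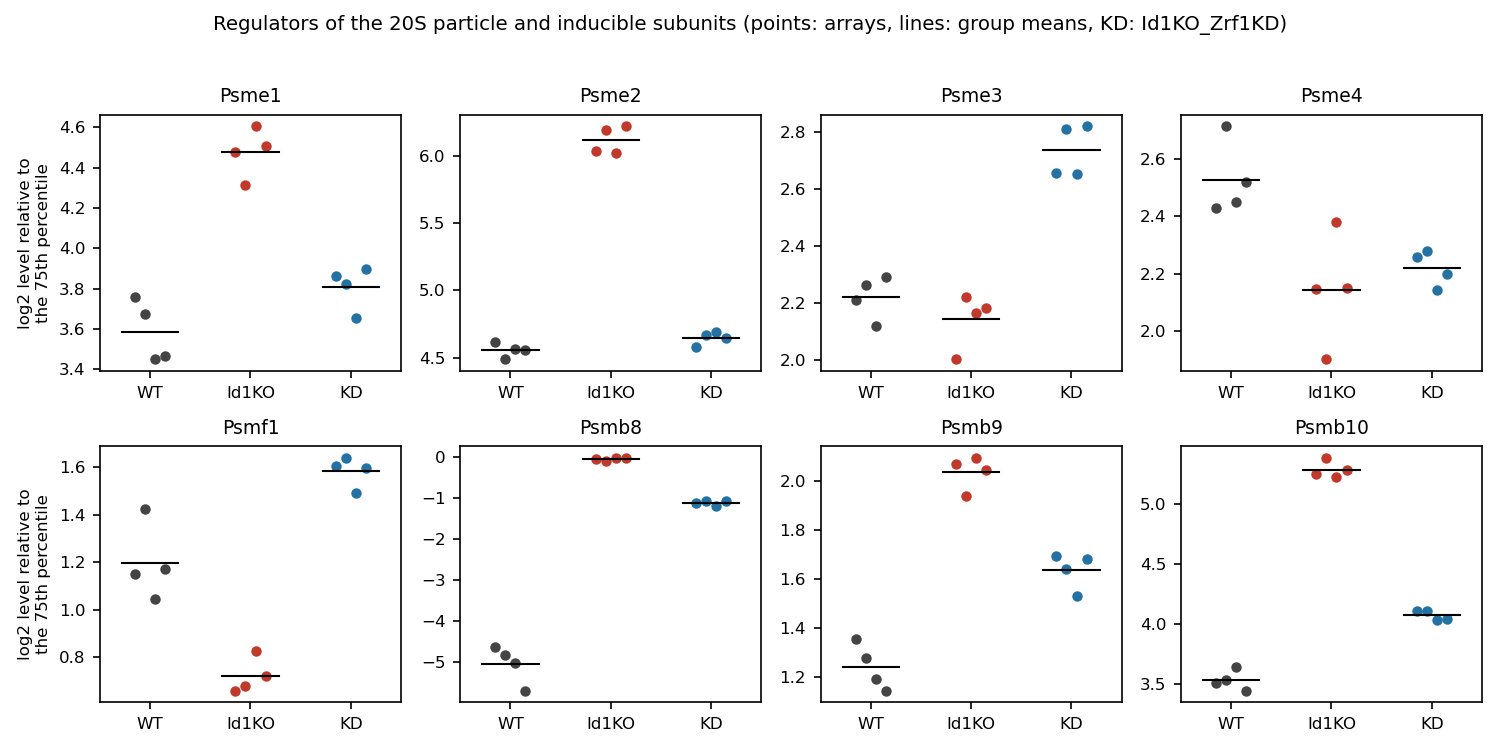
Log2 level relative to the array's 75th percentile of the 5 regulators of the core particle and of the inducible subunits Psmb8, Psmb9 and Psmb10 on each array (points), with group means (lines) and a separate scale per gene. Psme1, Psme2 and the inducible subunits are highest on the 4 Id1KO arrays, and Psme3 and Psmf1 are highest on the 4 Id1KO_Zrf1KD arrays.

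The inducible subunits, which replace Psmb5, Psmb6 and Psmb7 in the immunoproteasome, are no members and are given beside Psme1 and Psme2. All 3 were higher in Id1KO than in WT, lower in Id1KO_Zrf1KD than in Id1KO, and still above WT, under each of the 4 scalings. None of the WT arrays read Psmb8 well above background, so the size of its rise is not fixed. With WT set at the lowest signal read above background, Id1KO was 30-fold higher. The fitted log2 difference was 5.02, but 2.87 under normexp and in the deposited values, a smaller fold. The Psmb8 probe did not pass the filter through WT, so no p-value is given for it against WT. Psmb10 was 3.39-fold higher in Id1KO (1.76 ± 0.05 (SE), adjusted p = 2.85e-10) and 2.33-fold lower after the knockdown. Psmb9 changed by 0.79 and -0.40. Of 12 interferon response genes tested, 6 were higher and 2 lower in Id1KO than in WT, and 8 were higher and 3 lower in Id1KO_Zrf1KD than in Id1KO. These counts hold Ifit3, which passed the filter only through Id1KO_Zrf1KD, and without it they were 5 and 2, and 7 and 3, of 11. The shares of all genes were 42.5% higher and 29.6% lower in the first comparison, and 32.3% and 39.8% in the second. Irf1 moved like the inducible subunits (1.69, then -1.33), whereas Isg15 rose in both steps (2.76, then 0.83) and B2m fell and rose (-0.45, then 1.59).

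The factors that assemble the core particle changed in the direction of its subunits. Of 5 tested, Psmg1, Psmg3, Psmg4 and Pomp were higher in Id1KO and lower after the knockdown, and Psmg2 was not called in either comparison. Of all genes, 42.5% were higher in Id1KO and 39.8% lower after the knockdown. Paaf1 was not analysed here. Psmg4 differed most, by 0.97 ± 0.07 (SE), adjusted p = 3.09e-07 and then -1.25 ± 0.07 (SE), adjusted p = 4.47e-08, and Psmg3 by 0.58 and -0.63. Psmg1 lost both calls with quantile normalization and the deposited values, and the second also under normexp.

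Proteins that bring ubiquitin chains to the proteasome or edit them there were mostly higher after the knockdown. Of 13 genes, 6 were higher and 2 lower in Id1KO than in WT, and 9 were higher and 1 lower in Id1KO_Zrf1KD than in Id1KO, with medians of 0.06 and 0.34. The shares of all genes were 42.5% and 29.6% in the first comparison, and 32.3% and 39.8% in the second. The shuttle Rad23b gave 0.23 and 0.66, and Zfand2a, a stress-induced proteasome-binding protein, gave 0.59 and 0.71. Shfm1, a small subunit of the 19S particle outside the naming rule of the members, gave 0.43 and -0.32, calls lost with quantile normalization and the deposited values. Ubqln4 was lower in Id1KO (-0.34).

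The genes of ubiquitin and its activation were split. Rps27a, which encodes ubiquitin fused to a ribosomal protein, rose and fell (0.90, then -0.88). The activating enzyme Uba1 was 2.19-fold lower in Id1KO than in WT (-1.13 ± 0.03 (SE), adjusted p = 3.39e-10). Of the 6 genes of this list, 3 were higher and 2 lower in Id1KO, and 2 were higher and 2 lower after the knockdown. The counts in Id1KO became 1 and 4 under quantile normalization and in the deposited values. For reference, calls up and down from WT to Id1KO made up 42.5% and 29.6% of the 22590 genes tested. Those shares became 35.2% and 34.7% under quantile normalization, and 35% and 34.3% in the deposited values. For the step after the knockdown, the shares with the 75th percentile were 32.3% up and 39.8% down. A departure of this list from these shares was not tested.

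A list of Nrf1, Nrf2 (Nfe2l2), genes that release and process Nrf1 and the segregase p97 (Vcp) was mostly higher after the knockdown. Of 9 tested, 1 was higher and 4 lower in Id1KO than in WT, and 7 were higher and 1 lower in Id1KO_Zrf1KD than in Id1KO (median 0.63). The gene called lower was Nfe2l2 (-0.21), and Ngly1, which removes sugar chains from Nrf1, was not called (-0.03). Vcp gave -0.47 ± 0.05 (SE), adjusted p = 4.34e-06 and 0.66 ± 0.05 (SE), adjusted p = 3e-07, and Sel1l, an adaptor of degradation at the endoplasmic reticulum, gave -0.34 and 0.98. Nfe2l1, named here for its role after its values were seen, was not called in Id1KO (-0.23 ± 0.10 (SE), adjusted p = 0.0564) and was higher after the knockdown by 0.64. Of 6 targets of the related factor Nrf2, 4 were lower and 1 higher in Id1KO, and 5 were higher after the knockdown. Hmox1 gave -0.31 and 1.90. Slc7a11, another target, is left out of these counts because it passed the filter only through Id1KO_Zrf1KD. As a reference for both lists, 42.5% of the 22590 genes tested were called up from WT to Id1KO and 29.6% down. From Id1KO to Id1KO_Zrf1KD the corresponding shares were 32.3% and 39.8%. A difference between these 2 lists and the core subunit genes was not tested. Whether Nrf1 or Nrf2 had a part in the changes of the core subunit genes was not tested either.

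The members lie on 16 chromosomes, with Psmd10 on the X chromosome. RefSeq promoter windows (build GRCm38.p6) were matched by symbol for 34 of the 41 members, 37 windows in all, and the 250 bases before the start were searched on both strands. The core of the antioxidant response element that Nrf1 and Nrf2 bind, TGACNNNGC, was in 5 of 37 member windows (13.5%) and in 10.2% of all 32851 windows. The 5 belong to Psmb5, Psmb6, Psmc6, Psmd9 and Psmd12, each called higher in Id1KO than in WT. Members called higher held 25 of the windows and the other members tested only 11. Psmb5 and Psmd12 also lost that call under quantile normalization. A link between the motif and the change was not tested. A CCAAT box (CCAAT) was in 13 windows (35.1%, all windows 33.8%), a GC box (GGGCGG) in 21 (56.8%, all windows 32.7%) and an E-box (CANNTG), the site of basic helix-loop-helix factors, in 20 (54.1%, all windows 66.2%). E-boxes were in 11 of 25 windows of members called higher in Id1KO and in 8 of 11 windows of the other members tested. A match of letters is a description and not a bound site. Any motif may overlap another.

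The 250 bases before the RefSeq start (build GRCm38.p6) of Psma7, Psmb6 and Psme2, which were higher in Id1KO and then lower, and of Psmd2, which was lower and then higher, are shown with every match of the 4 motifs in capitals.
Psma7, chr2:180042465-180042714, minus strand: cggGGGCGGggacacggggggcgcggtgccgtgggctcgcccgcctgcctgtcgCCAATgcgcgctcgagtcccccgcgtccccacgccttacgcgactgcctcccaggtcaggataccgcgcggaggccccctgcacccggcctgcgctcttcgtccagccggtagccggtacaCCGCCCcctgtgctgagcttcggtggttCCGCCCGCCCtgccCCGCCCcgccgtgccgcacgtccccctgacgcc
Psmb6, chr11:70525107-70525356, plus strand: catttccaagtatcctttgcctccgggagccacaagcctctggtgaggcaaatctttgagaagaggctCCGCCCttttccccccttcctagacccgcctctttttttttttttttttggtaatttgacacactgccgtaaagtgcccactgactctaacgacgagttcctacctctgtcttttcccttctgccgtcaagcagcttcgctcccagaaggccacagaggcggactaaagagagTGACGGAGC
Psme2, chr14:55591102-55591351, minus strand: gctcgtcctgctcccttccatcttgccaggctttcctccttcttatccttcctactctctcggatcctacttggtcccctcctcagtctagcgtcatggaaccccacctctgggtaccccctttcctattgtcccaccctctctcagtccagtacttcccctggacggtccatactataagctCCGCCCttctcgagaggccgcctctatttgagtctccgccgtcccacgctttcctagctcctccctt
Psmd2, chr16:20651402-20651651, plus strand: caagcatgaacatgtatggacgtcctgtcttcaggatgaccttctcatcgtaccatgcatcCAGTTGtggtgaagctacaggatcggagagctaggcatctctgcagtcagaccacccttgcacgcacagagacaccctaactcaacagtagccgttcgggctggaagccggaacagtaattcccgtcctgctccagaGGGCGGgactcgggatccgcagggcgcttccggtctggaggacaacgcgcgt
The Psma7 sequence held a CCAAT box and 5 GC box matches, and that of Psmb6 held 1 antioxidant response element core, at its end, and 1 GC box. The Psme2 sequence, taken from the outer of its RefSeq starts, held 1 GC box, and that of Psmd2 held 1 E-box and 1 GC box.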

How the data were processed

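Total RNA of 12 samples was labelled with Cy3 and hybridised to 1 array each. Per the file headers, the deposited scanner files come from Agilent Feature Extraction 10.7.3.1 and hold spot intensity (the processed signal, corrected for background within each array, with the spot mean and local background) and flags of 0 or 1. The authors' deposited table holds log2 values whose columns all have a median of 6.55, made by a normalization that the sources used do not state.

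Spots flagged as non-uniform or population outliers were left out, log2 processed signal minus the array's 75th percentile was averaged per probe, and probes well above background (at least 50% of spots) on all 4 arrays of a group were kept. The brightest kept probe stood for a gene. Groups were compared in 1 fit with limma 3.58.1 (R 4.3.3). Tests were two-sided, and p-values were adjusted (Benjamini-Hochberg) per comparison. On simulated data for Id1KO against WT, the fit recovered 26% of log2 changes of 0.25, 52% of 0.5, 94% of 1 and 96% of 2. It made 9 false calls over 22375 genes. Far fewer genes were changed there than were called in these data. Precision is limited by 4 arrays a group.

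The members and gene lists were chosen with earlier results of these data known. Every member is named. The value on every array is given for up to 3 members per class and comparison with the smallest adjusted p, and for Psma6, Psma8, Psmb2 and Psmb7, chosen after their values were seen. Of other genes, Dnajc2, Id1, the inducible subunits and up to 2 per list and comparison are named, except 1 that is not reported here. Nfe2l2, Ngly1, Ifit3, Lum and 4 stem cell markers were named after their values were seen. Alternatives were normexp (offset 50), quantile normalization, the deposited values, no or a stricter filter, centring on genes with a symbol, the mean of a gene's probes, slide or replicate number as a block, another prior and leaving out each array. Leaving out the Psmb2 spot, the other scalings of the differences between classes within an array and the reference of genes of like brightness were chosen after seeing the data. Same-numbered arrays of different groups did not deviate together (correlations of -0.44 to 0.40), so the numbers were not used as pairs. Same-slide arrays of different groups correlated at 0.06 to 0.40.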

Additional observations from a re-analysis of the deposited data

Results flagged for a closer look

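Among 120 sets of 4 arrays (40 genes in 3 groups), 6 held an array whose distance to the nearest of the others took up more of the range than Dixon's 95% critical value allows. Chance alone would mark about 1 in 20 sets, a share that 6 of 120 does not exceed. Psmb2 on Id1KO replicate 3 was the widest, at -4.75 against 2.67 to 2.80 on the other Id1KO arrays. Psmb2 on WT replicate 1 lay at 2.04, against 2.34 to 2.35. Psmd13 lay at 5.0001 on Id1KO replicate 1, against 5.09 to 5.10, and at 4.90 on Id1KO_Zrf1KD replicate 3, against 5.05 to 5.08. On the same array Psmd2 lay at 5.33, against 5.55 to 5.56. Psma3 on Id1KO_Zrf1KD replicate 4 was marked at 6.78, against 6.75.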

How the results depend on the processing

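Of the 120 member fold changes (40 genes in 3 comparisons), 113 kept direction and call under normexp, 84 under quantile normalization, 88 with the deposited values, 114 without the filter, 98 with arrays centred on genes with a symbol, 115 with the mean of a gene's probes, 115 with slide as a block, 117 with the replicate number as a block, 119 with another prior, and 117 of 117 with probes above background on all 12 arrays. In Id1KO against WT, genes called lower numbered 6, but 12 (quantile) and 11 (deposited), and lower probes 6, but 12 under both. The median of the members minus that of all genes was 0.207 there, but 0.120 (quantile), 0.129 (deposited) and 0.060 (no filter). In Id1KO_Zrf1KD against Id1KO it was -0.058, but 0.019 (normexp), 0.020 (quantile) and 0.200 (no filter), and in Id1KO_Zrf1KD against WT 0.277, but 0.206 (quantile) and 0.194 (deposited). Centring on genes with a symbol left 8 genes and 9 probes higher in Id1KO_Zrf1KD than in Id1KO. With the replicate block, the counts of genes higher and lower were 25 and 6, 15 and 21, and 27 and 3 in the 3 comparisons, and Psma1, Psmb7 and Psme1 lost their calls against WT in Id1KO_Zrf1KD. It changed no other call of a member gene. In Id1KO against WT the reversed values were Psma8 0.088 and Psmc1 -0.0034 with normexp. With quantile normalization they were Psmb3 -0.25, Psmc1 -0.29 and Psmd12 -0.054. With the deposited values they were Psmb3 -0.22, Psmc1 -0.24 and Psmd12 -0.052. With arrays centred on genes with a symbol they were Psma8 0.10, Psmd1 0.06, Psmd11 0.084, Psmd4 0.069 and Psme3 0.048. With the mean of a gene's probes it was Psmc1 -0.020. Without the Psmb2 spot of Id1KO replicate 3 it was Psmb2 0.47. In Id1KO_Zrf1KD against Id1KO the reversed values were Psma2 0.046, Psmb4 0.0076, Psmb5 0.15, Psmc3 0.15 and Psme4 -0.020 with quantile normalization. With the deposited values they were Psma2 0.025, Psmb5 0.09, Psmc3 0.14 and Psme4 -0.018. With arrays centred on genes with a symbol they were Psmc4 -0.080 and Psme4 -0.062. With the mean of a gene's probes it was Psme4 -0.0094. Without the Psmb2 spot of Id1KO replicate 3 it was Psmb2 -0.11. In Id1KO_Zrf1KD against WT the reversed values were Psma1 -0.0013, Psma4 -0.038, Psmd10 -0.068, Psmd2 -0.059, Psmd5 -0.10, Psmd7 -0.084 and Psme2 -0.065 with quantile normalization. With the deposited values they were Psma1 -0.013, Psma4 -0.04, Psmd10 -0.062, Psmd2 -0.013, Psmd5 -0.12, Psmd7 -0.077 and Psme2 -0.058. With arrays centred on genes with a symbol they were Psmd10 -0.0055 and Psmd5 -0.00023. With the mean of a gene's probes it was Psmd10 -0.068. With slide as a block they were Psmd10 -0.028 and Psmd5 -0.028. The cause was not tested.

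Leaving out 1 array at a time kept 1387 of 1440 member values in direction and call. The counts of genes higher and lower were then 24 to 26 and 6 to 7 in Id1KO against WT, 15 and 19 to 21 in Id1KO_Zrf1KD against Id1KO, and 26 to 31 and 3 in Id1KO_Zrf1KD against WT. Directions that turned were those of Psma8 (-0.19 to 0.11) and Psmb2 (-2.04 to 0.47) in the first, Psmb2 (-0.11 to 2.40) and Psme4 (-0.0060 to 0.15) in the second, and Psmd10 (-0.061 to 0.061) and Psmd5 (-0.025 to 0.060) in the third. Psmb3 (0.15 without WT replicate 1, 0.14 without Id1KO replicate 2) and Psmd7 (-0.17 without WT or Id1KO replicate 3) gained calls in the first. In the third, Psma4 gained one without WT replicate 3 or Id1KO_Zrf1KD replicate 1 (0.14 and 0.13) and Psmd2 without WT replicate 1 (0.19), and Psmd3 lost its call without WT replicate 4 or Id1KO_Zrf1KD replicate 2 (0.092 and 0.10). The 4 arrays a group limit what can be called, so an uncalled member cannot be read as unchanged.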
